A study of Rattus norvegicus with 23 samples.

Results

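The mitochondrial ribosomal proteins are the proteins that, with RNA made from mitochondrial DNA, form the ribosome inside mitochondria. Their genes were found in the rat dorsal hippocampus by symbol, as every probe set with 1 gene symbol that begins with Mrpl or Mrps followed by a digit. This rule found 72 of the 29211 probe sets on the array, for 68 of the 14503 genes named by such probe sets, and used no measured value. The large subunit holds 46 of these probe sets (43 genes, Mrps30 and Mrps18a among them in spite of their names) and the small subunit 26 (25 genes). All 72 passed the signal minimum of 40 on at least 4 arrays, as did 13339 probe sets with 1 symbol in all. A probe set that names both Mrpl20 and Ankrd65 lies outside the rule. Its mean signal was 225 in LT, 237 in ST, 238 in AC and 222 in YC. A tested probe set with the symbol mrpl11, written with a small first letter, also lies outside the rule. It is not counted among the members below.

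The study asked whether a virus carrying FKBP1b, a protein that restrains calcium release from intracellular stores, changes hippocampal gene expression in aged rats. The rats were male F344, with 1 array per animal. The long-term group (LT, n = 6) and the short-term group (ST, n = 6) were given an AAV2/9 vector with rat FKBP1b in both hippocampi, the aged controls (AC, n = 5) the same kind of vector with eGFP, and the young controls (YC, n = 6) no FKBP1b vector. The sources differ on details. By the sample labels the injections came at 12 months of age in LT and 18 months in ST and AC, and by the series text at 13 months in LT, 19 in ST and 13 in AC. YC rats are described as sham in the labels and as not injected in the series text. All aged rats were 21 months old at the arrays and YC rats 5 to 6 months. The FKBP1b vector had a titer of 1.99e12 genome copies per mL and the eGFP vector 1.86e13, at 2 µl per side. Both were injected into CA1 with a CaMKII promoter, which is active in excitatory neurons, while the RNA came from the whole dorsal hippocampus. The study chose the ST and LT animals for the arrays among those with FKBP1b expression above their group median. Age, surgery and vector therefore cannot be told apart in AC against YC. Nor can transgene, titer and the choice of animals in ST or LT against AC. LT and ST also differ in age at injection and in time since it. The same holds for LT and AC by the labels, and for ST and AC by the series text.

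Mitochondrial ribosomes translate the few proteins encoded by mitochondrial DNA, all of them core subunits of the respiratory chain and the ATP synthase. The proteins of the ribosome itself are encoded in the nucleus, made in the cytosol and imported. The small subunit binds the messenger and holds the decoding center, and the large subunit joins the amino acids and passes the new chain through an exit tunnel to the inner membrane. Some of its proteins descend from bacterial ribosomal proteins, and others were added in mitochondria and have no bacterial counterpart. In neurons these ribosomes are also found in axons and dendrites, where mitochondria supply energy to synapses.

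Values below are signals on the unlogged scale of the Robust Multiarray Average (RMA), one per probe set and array, and differences are on the log2 scale from limma. A probe set is said to have passed, or to have been called, at a Benjamini-Hochberg adjusted p under 0.05 over the 13339 probe sets tested. Signals of the members lay between 98 and 1489, and were not compared between probe sets, since probes differ in how well they bind. The median residual SD of the members was 0.073 on the log2 scale, against 0.093 over all probe sets tested. An array of each animal reads all cells of the tissue together, so fewer cells of a type and less RNA per cell cannot be told apart.

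The Fkbp1b probe set had signals of 843 to 1217 in LT and 427 to 881 in ST, against 364 to 458 in AC and 353 to 411 in YC. The array annotation names this probe set, while the study's text gives the array as having none for Fkbp1b, and whether its probes lie in the vector's insert was not examined. Array medians over all probe sets were 138 to 141 in LT, 134 to 140 in ST, 134 to 141 in AC and 137 to 141 in YC. RNA integrity numbers were 8.9 to 9.5 in LT, 9.4 to 9.7 in ST, 8.9 to 9.8 in AC and 9.4 to 9.5 in YC. All 10 neuron markers were present, with mean signals from 1354 to 11168. In AC against YC, 9 of 10 microglia markers and 6 of 7 endothelial markers were called higher (medians 0.49 and 0.46), none of 10 neuron markers was called (median -0.062), and 11 choroid plexus markers had a median of 1.40 with 0 called. Of 8 astrocyte probe sets 1 was called higher (median -0.036), and of 8 oligodendrocyte probe sets none was called (median -0.11). The choroid plexus score was over 2 on AC 3, AC 4, LT 2 and LT 5 alone, so called results are also given with these 4 arrays left out. AC 5 also stood apart, with an oligodendrocyte score of -0.41 and a microglia score of 0.98, against -0.11 to 0.093 and -0.010 to 0.077 on the other AC arrays, and an RNA integrity number of 8.9. It was above every other AC array in 27 of the 72 members, Mrpl23, Mrpl10 and Mrps14 among them, and below every other in 22. With AC 5 left out, AC against YC was 0.23 for Mrpl23 (adjusted p = 0.0083), -0.14 for Mrpl38 (adjusted p = 0.0084) and 0.086 for Mrpl10, which no longer passed (adjusted p = 0.078), and aged against YC was 0.12 for Mrps14 (adjusted p = 0.041). The part of these cell types in the values of the mitochondrial ribosomal proteins was not tested.

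Between AC and YC rats, 3 of the 72 probe sets passed. Mrpl23, a protein at the rim of the exit tunnel, and Mrpl10, the base of the stalk that recruits translation factors, were higher in AC, and Mrpl38, a mitochondria-specific protein of the central protuberance, was lower. With the 3 aged groups averaged against YC, the same 3 genes passed in the same directions, and Mrps14, a protein of the small-subunit head, was also higher. The 3 called in AC against YC are 4.17% of the members, beside 9.75% of all probe sets tested, and the 4 called in aged against YC are 5.56%, beside 8.55%. At an unadjusted p under 0.05, 13 members (18.1%) differed in AC against YC (5 higher, 8 lower), beside 27.4% of all probe sets tested, and 10 (13.9%) in aged against YC (7 higher, 3 lower), beside 24.5%.

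The members were split in direction between AC and YC. Of the 72, 34 had a positive difference and 38 a negative one, with a median of -0.0021 on the log2 scale, beside -0.0062 over all probe sets tested. The sign of this median depended on the processing. It was 0.019 when array medians were made equal (all probe sets 0.015), -0.011 after quantile normalization and 0.0073 with AC 3, AC 4, LT 2 and LT 5 left out. In aged against YC, 41 of 72 were positive with a median of 0.0094, beside -0.0041. The measurements were precise enough to bound most members. The 95% interval of the AC against YC difference lay within 1.2-fold either way for 70 of the 72 (97.2%), beside 70.8% of all probe sets tested, and in aged against YC it did so for all 72, beside 84.0%.

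**Figure D1:**
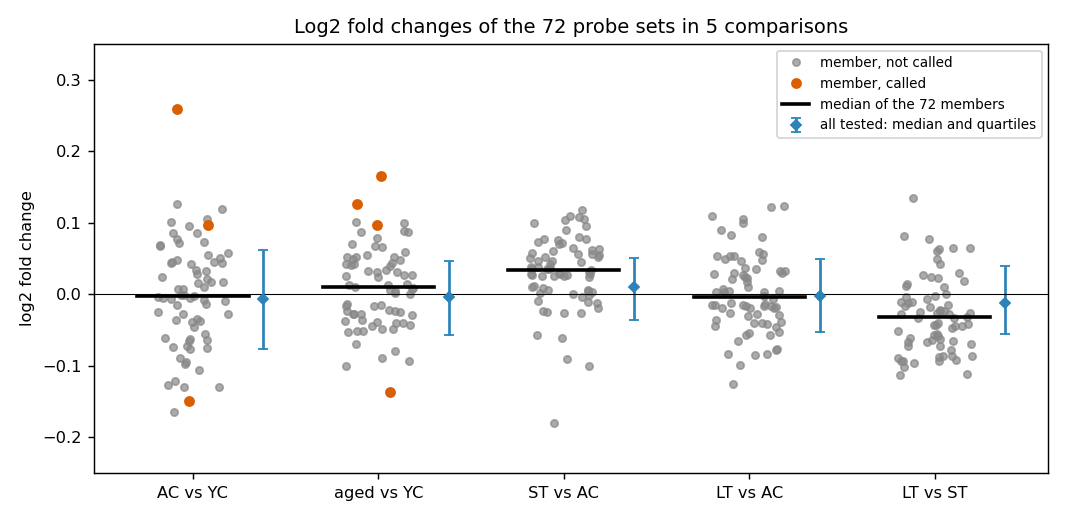
Log2 fold changes (vertical axis) of the 72 probe sets in 5 comparisons (horizontal axis). Points are probe sets, orange where called, black lines are the medians of the 72, and blue diamonds with bars are the median and quartiles of all 13339 probe sets tested. The median of the 72 is 0.035 in ST vs AC and -0.032 in LT vs ST, and -0.0021 in AC vs YC.

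Mrpl38 had the clearest separation of the groups. Signals of probe set 10749132 were 267, 278.5 and 292 (lowest, median and highest) in LT and 267, 284.5 and 301 in ST. In AC they were 282, 284, 276, 274 and 274, against 299, 309.5 and 316 (lowest, median and highest) in YC. All 6 LT arrays, 5 of 6 ST arrays and all 5 AC arrays were below every YC array. The AC mean was 278 ± 4.7 (SD, n = 5) and the YC mean 308.5 ± 7.6 (SD, n = 6), a difference of -0.15 (SE 0.031, adjusted p = 0.0056 by limma), or 9.87% lower in AC. In aged against YC the difference was -0.14 (SE 0.024, adjusted p = 0.0018), in LT against YC -0.14 (adjusted p = 0.019) and in ST against YC -0.12 (adjusted p = 0.028). These comparisons share the YC arrays. Mrpl38 passed in every fit without 1 array in AC and in aged against YC, and missed the threshold in 6 of 23 such fits in ST against YC and 4 in LT against YC. Mrpl38 was the sole member whose AC and YC arrays did not overlap, where 5.09% of all probe sets tested had no overlap. In aged against YC no member was without overlap, beside 0.847% of all. With AC 3, AC 4, LT 2 and LT 5 left out, the difference was -0.14 in AC (adjusted p = 0.041) and -0.12 in aged against YC (adjusted p = 0.0088), and the LT against YC difference of -0.12 no longer passed (adjusted p = 0.15).

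Mrpl23 had the largest difference among the members in AC against YC. Its bacterial homolog sits where the new protein chain leaves the ribosome. Signals of probe set 10712501 were 283, 307.5 and 315 in LT and 270, 283.5 and 318 in ST. In AC they were 282, 330, 329, 340 and 356, against 261, 275 and 284 in YC. Of the AC arrays, 4 were above every YC array and AC 1 was within the YC range, and 5 LT arrays and 3 ST arrays were above every YC array. AC averaged 327 ± 28 (SD, n = 5) and YC 273 ± 8.7 (SD, n = 6), a difference of 0.26 (SE 0.050, adjusted p = 0.0039), or 19.7% higher in AC. In aged against YC it was 0.17 (SE 0.040, adjusted p = 0.013), or 12.2%. With AC 3, AC 4, LT 2 and LT 5 left out, the AC against YC difference was 0.24 and no longer passed (adjusted p = 0.051), and that in aged against YC was 0.16 (adjusted p = 0.0498).

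Mrpl10 anchors the flexible stalk, whose other protein in mitochondria is Mrpl12. Signals of probe set 10737784 were 382, 409 and 423 in LT and 411, 422.5 and 431 in ST. In AC they were 412, 421, 410, 399 and 426, against 376, 382.5 and 414 in YC. A single YC array, YC 4 at 414, reached into the AC and ST ranges, and 5 of 6 ST, 2 of 6 LT and 2 of 5 AC arrays were above it. AC averaged 414 ± 10 (SD, n = 5) and YC 387 ± 14 (SD, n = 6). The difference of 0.097 (SE 0.030, adjusted p = 0.047), or 6.95% higher in AC, was close to the threshold and no longer passed in 17 of the 23 fits without 1 array or with AC 3, AC 4, LT 2 and LT 5 left out (0.12, adjusted p = 0.065). In aged against YC it was 0.097 (SE 0.024, adjusted p = 0.015) and in ST against YC 0.13 (adjusted p = 0.016), and these passed in every fit without 1 array. Mrpl12 itself, which in human cells is also known to bind the mitochondrial RNA polymerase, differed by 0.047 in AC against YC (adjusted p = 0.70).

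Mrps14 was called in aged against YC and not in AC against YC. Signals of probe set 10764983 were 233, 243.5 and 254 in LT and 246, 263.5 and 294 in ST. In AC they were 242, 251, 255, 245 and 275, against 207, 233 and 253 in YC. The groups overlapped, with 4 of 6 ST, 2 of 5 AC and 1 of 6 LT arrays above every YC array. The difference was 0.13 in aged against YC (SE 0.038, adjusted p = 0.043), or 9.10% higher, 0.18 in ST against YC (SE 0.046, adjusted p = 0.028) and 0.13 in AC against YC (adjusted p = 0.094). The call in ST against YC was kept in 16 of the 23 fits without 1 array. That in aged against YC was kept in 11 of them, and without YC 4 the aged against YC difference was 0.093 (adjusted p = 0.14). With AC 3, AC 4, LT 2 and LT 5 left out it was 0.14 (adjusted p = 0.061).

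**Figure D2:**
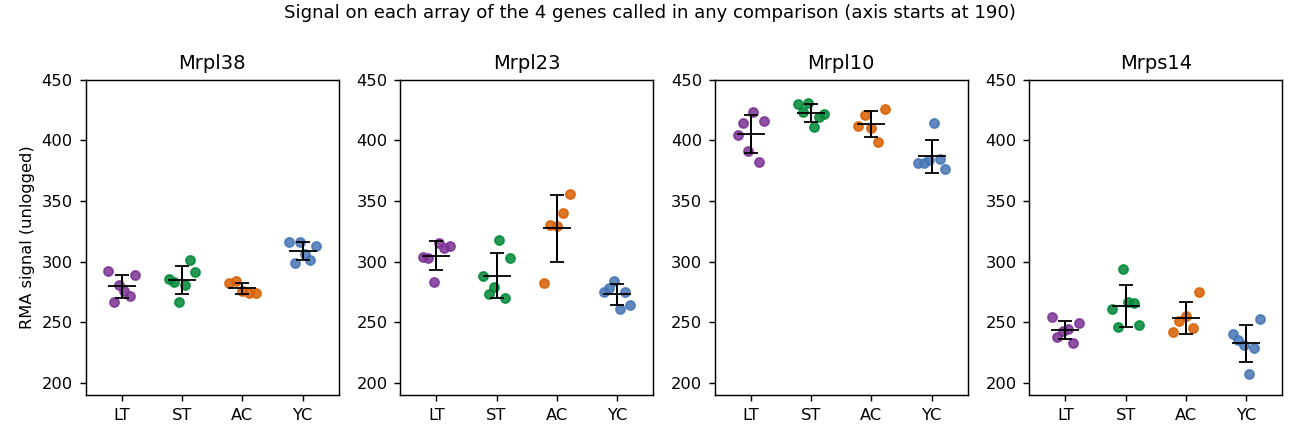
RMA signal (vertical axis, unlogged, starting at 190) on each array of the LT, ST, AC and YC groups for Mrpl38, Mrpl23, Mrpl10 and Mrps14. Each point is 1 array, and bars show the mean ± SD of a group. All AC arrays of Mrpl38 (274 to 284) lie below the YC arrays (299 to 316), while the other 3 genes overlap between groups.

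In ST against YC, Mrpl10, Mrps14 and Mrpl38 were called, 3 of 72 beside 4.15% of all probe sets, and in LT against YC Mrpl38 alone, beside 1.03%. The F test across the 4 groups called Mrpl38 (adjusted p = 0.011), Mrpl23 (adjusted p = 0.016) and Mrpl10 (adjusted p = 0.039), 3 of 72 beside 5.46%. The count in ST against YC moved with the scaling. With array medians made equal, 8 members (11.1%) were called, all of them higher, beside 9.27% of all probe sets in the same fit, against 2 higher and 1 lower as deposited. The 8 were Mrpl10, Mrps14, Mrpl17, Mrpl21, Mrpl32, Mrps21, Mrps31 and a probe set of Mrpl41. In AC against YC, quantile normalization gave 1 member higher (Mrpl23) and 3 lower (Mrpl38, Mrpl4 and Mrpl46), beside 9.72% of all probe sets, against 2 higher and 1 lower as deposited, and in aged against YC 2 higher and 2 lower, beside 7.85%, against 3 higher and 1 lower.

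The DNA just before the start of the 3 genes called higher is shown so that their control regions can be compared. The 120 bases before the transcription start come from RefSeq annotation of the rat build GRCr8, on the strand of the gene, with the letters of a searched motif in capitals.
Mrpl10: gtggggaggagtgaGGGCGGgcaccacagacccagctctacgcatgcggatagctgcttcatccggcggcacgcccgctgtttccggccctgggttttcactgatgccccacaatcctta
Mrpl23: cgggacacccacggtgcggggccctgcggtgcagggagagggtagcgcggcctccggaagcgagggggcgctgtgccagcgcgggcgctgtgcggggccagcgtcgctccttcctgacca
Mrps14: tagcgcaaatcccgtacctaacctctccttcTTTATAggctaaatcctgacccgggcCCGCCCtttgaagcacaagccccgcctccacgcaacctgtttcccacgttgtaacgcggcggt
They lie at chr10:82522350-82522469 (Mrpl10), chr1:207116810-207116929 (Mrpl23) and chr13:74962477-74962596 (Mrps14), all on the plus strand. Capitals mark GGGCGG or its complement CCGCCC, the letters bound by Sp1, in Mrpl10 and Mrps14, and TTTATA, the complement of TATAAA, in Mrps14. Mrpl23 holds GGGCGG further up, at base -200 from the start, outside the bases shown. Mrpl10 and Mrps14 hold it further up too. The share of G and C was 63.3% in Mrpl10, 76.7% in Mrpl23 and 57.5% in Mrps14.

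Over the 46 large-subunit probe sets, 21 were positive in AC against YC (median -0.0044), and Mrpl23, Mrpl10 and Mrpl38 were the 3 called. Mrpl4 and Mrpl46 are named after their values were seen. Mrpl4, which lines the exit tunnel, had signals of 655, 663, 643, 635 and 559 in AC, against 642, 697.5 and 703 (lowest, median and highest) in YC, a difference of -0.13 that did not pass (SE 0.043, adjusted p = 0.066). Mrpl46, of the central protuberance like Mrpl38, had 384, 396, 386, 347 and 381 in AC, against 377, 409 and 458 in YC (-0.13, adjusted p = 0.079). All 5 AC arrays of both genes lay below the YC median, with overlap. Mrpl18 and Mrpl40, of the same region, were not called. Mrpl18 was at 0.068 (adjusted p = 0.20) and the probe sets of Mrpl40 at 0.034 and 0.045 (adjusted p = 0.67 and 0.48). Mrps30, a large-subunit protein, was at -0.089 (adjusted p = 0.14) and Mrps18a, which sits there in the place of a bacterial-type protein, at -0.0030 (adjusted p = 0.97). Mrpl3, near the site of peptide bond formation, was at -0.038 (adjusted p = 0.57), and Mrpl44, which has the fold of an RNA-cutting enzyme, at -0.013 (adjusted p = 0.89).

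No small-subunit probe set was called in AC against YC, where 13 of 26 were positive (median 0.0070) and 1, Mrps14, was called in aged against YC. Mrps34 had the lowest difference of all members, -0.17 (SE 0.067, adjusted p = 0.12), and was named after its value was seen. Its signals were 233, 242, 238, 209 and 197 in AC, against 218, 256 and 286 in YC, with overlap. Mrps12, which carries part of the decoding center, was at -0.016 (adjusted p = 0.92), Mrps7 of the head at -0.064 (adjusted p = 0.32) and Mrps22 at 0.017 (adjusted p = 0.77). Mrps18b, a mitochondria-specific relative of Mrps18a that belongs to the small subunit, was at 0.024 (adjusted p = 0.79). Probe sets with a bacterial counterpart had 17 of 40 positive differences (median -0.011, 2 called higher), and those without had 17 of 32 (median 0.0076, 1 called lower).

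**Figure D3:**
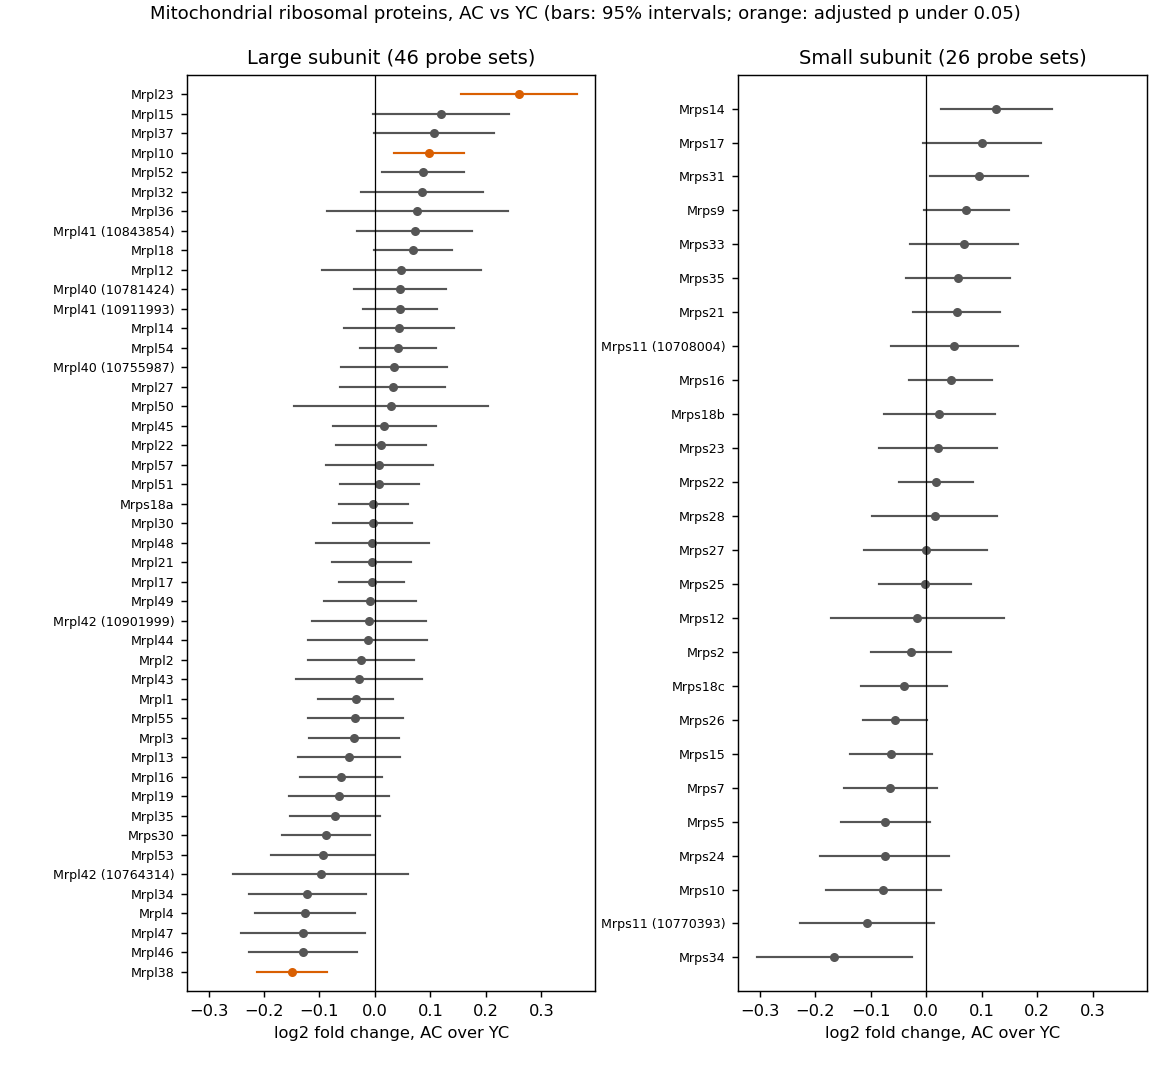
Log2 fold change of AC over YC (horizontal axis) with its 95% interval (bars) for each probe set (rows), large subunit on the left and small subunit on the right, sorted by value. Orange marks the 3 called, Mrpl23 at 0.26, Mrpl10 at 0.097 and Mrpl38 at -0.15, and the intervals of 13 of 72, these among them, leave out 0, as those of 27.4% of all probe sets tested do.

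Spread was largest for Mrpl50, Mrpl36 and the probe set 10764314 of Mrpl42, with residual SDs of 0.15, 0.14 and 0.13 on the log2 scale, and 7 members had one over 0.1. Mrpl50, a large-subunit protein without a bacterial counterpart, had signals of 108 to 140 in LT, 105 to 130 in ST, 98 to 135 in AC and 102 to 128 in YC. The groups lay over one another, and its 95% interval in AC against YC ran from -0.15 to 0.20. Differences within these bounds remained compatible with its values.

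The respiratory chain and the cytosolic ribosome are set beside the mitochondrial ribosome, since it makes core subunits of the respiratory chain, and the cytosolic ribosome makes its proteins. Of 85 probe sets for subunits of the respiratory chain and ATP synthase (73 genes), 9 were called higher and 1 lower in AC against YC, with 57 positive and a median of 0.034. Of 268 probe sets matched by the symbols of cytosolic ribosomal proteins, 71 were called higher and 4 lower, with 232 positive and a median of 0.062, and in aged against YC 100 were higher and 1 lower. Over all probe sets tested, calls were 9.75% in AC against YC and 8.55% in aged against YC. The cytosolic list also holds 6 probe sets of S6 kinases, and has 268 probe sets for 80 symbols. For the mitochondrial ribosomal proteins the same values were 2 higher, 1 lower, 34 of 72 positive and a median of -0.0021. The differences between the lists were not tested.

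On each array, a score was taken as the mean over the 72 probe sets of the deviation from the mean of 23 arrays, in log2 units. It ranged from -0.019 to 0.0058 in LT, from 0.0099 to 0.037 in ST, from -0.024 to 0.0063 in AC and from -0.058 to 0.020 in YC. All 6 ST arrays were above every LT and every AC array, and 2 of them above every YC array. With the mean over all probe sets tested taken off each array, ST ranged from 0.011 to 0.037. LT then reached 0.016, AC 0.015 and YC 0.029, so ST overlapped with each of them. YC 2 had the lowest score of all, -0.058, and was also the lowest in the respiratory chain list (-0.073) and in the cytosolic list (-0.12).

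**Figure D4:**
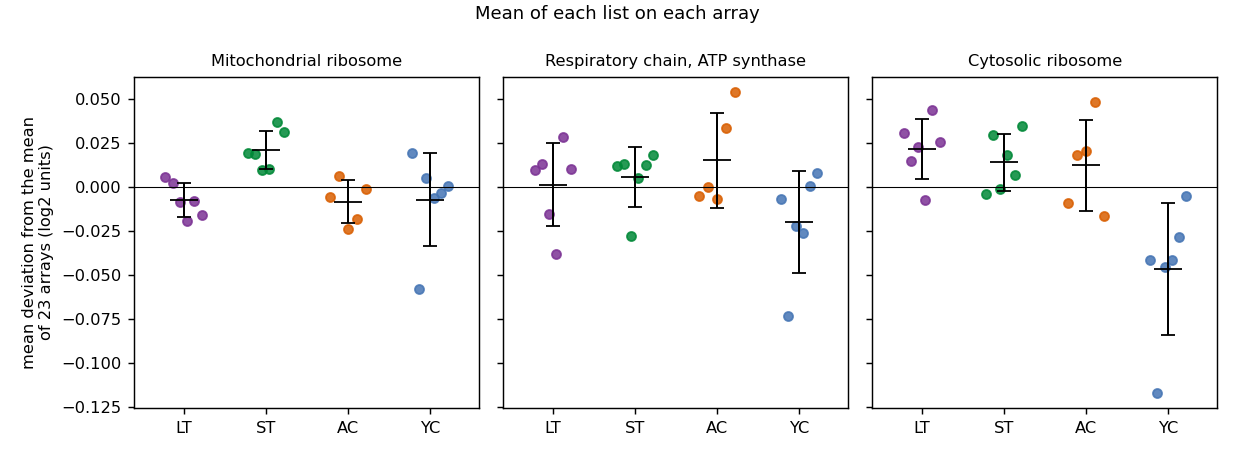
Mean deviation from the mean of 23 arrays (vertical axis, log2 units) for the mitochondrial ribosome, the respiratory chain with ATP synthase and the cytosolic ribosome on each array of LT, ST, AC and YC. Each point is 1 array, with the mean ± SD of its group as a bar. The 6 ST arrays lie at 0.0099 to 0.037 for the mitochondrial ribosome, above the LT and AC arrays, and YC 2 is the lowest point of each panel. The mean over all probe sets is not taken off here, and with it taken off ST overlaps with LT and AC.

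The comparisons of ST and LT with AC asked what FKBP1b changed in aged rats, and those with AC share its 5 arrays. No member was called in ST against AC, where 0% of all probe sets were, in LT against AC (0.075% of all), in ST and LT together against AC (0.03% of all) or in LT against ST (0.0075% of all). At an unadjusted p under 0.05, 6 members differed in ST against AC (5 higher, 1 lower, beside 9.82% of all), 7 in LT against AC (3 higher, 4 lower, beside 12.6%) and 5 in ST and LT together (3 higher, 2 lower, beside 10.5%). In LT against ST there were 11 (15.3%), all lower in LT, beside 12.4% of all, where 994 of 1654 were lower in LT.

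Small differences in ST leaned to higher values. In ST against AC, 57 of 72 members were positive with a median of 0.035 on the log2 scale, beside 7559 of 13339 probe sets (56.7%) and a median of 0.010. Small-subunit probe sets were positive in 23 of 26 and large-subunit ones in 34 of 46 (medians 0.029 and 0.037). Those with a bacterial counterpart were positive in 36 of 40 and those without in 21 of 32 (medians 0.046 and 0.026). In LT against ST, 17 of 72 were positive with a median of -0.032, beside -0.013 over all probe sets. In LT against AC, 35 were positive, with a median of -0.0044, beside -0.0031. The median in ST against AC stayed between 0.031 and 0.052 in 14 alternative fits and between 0.028 and 0.039 without 1 array, and it was 0.035 with the RNA integrity number as a covariate and 0.033 with AC 3, AC 4, LT 2 and LT 5 left out. It was 0.052 with array medians made equal, which moved the median of all probe sets to 0.027. In the same comparison all 8 oligodendrocyte probe sets were positive (median 0.13, 0 called), all 7 endothelial ones negative (median -0.28, 0 called) and all 11 choroid plexus ones negative (median -1.88, 0 called). For the other marker lists, the mean array score was -0.043 in AC and -0.0028 in ST for neurons. It was 0.23 in AC and 0.097 in ST for microglia, and 0.0045 and 0.019 for astrocytes. The part of these cell types in the values of the members was not tested. In ST against AC the respiratory chain list had 35 of 85 positive (median -0.0052) and the cytosolic list 132 of 268 (median -0.0004). Lists closer to the mitochondrial ribosome had 4 of 5 positive for its proteins with other names (median 0.033), 14 of 21 for assembly (median 0.016), 7 of 11 for translation factors (median 0.026), 9 of 13 for synthetases (median 0.011) and 17 of 23 for import and mass (median 0.016). Transcription and DNA maintenance had 5 of 10 (median 0.0040) and the nuclear regulators 4 of 8 (median 0.0033).

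The members with the smallest p in these comparisons are given as not passing. Mrpl23 was lower in both FKBP1b groups than in AC, with a difference of -0.18 in ST against AC (SE 0.050, adjusted p = 0.28), -0.10 in LT against AC (adjusted p = 0.42) and -0.14 in both together (adjusted p = 0.25). Of its 5 AC signals, AC 1 at 282 was the lowest. Without AC 1, the difference was -0.23 in ST against AC (adjusted p = 0.029) and -0.19 in both together (adjusted p = 0.026), so these calls depended on 1 array. Calls over all probe sets also rose without AC 1, from 0 to 65 in ST against AC and from 4 to 120 in both together.

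Mrpl21 and Mrpl17, large-subunit proteins with bacterial counterparts, had their highest signals in ST. Mrpl21 had 422, 440.5 and 478 in LT and 459, 470 and 488 in ST, against 465, 451, 407, 446 and 447 in AC and 429, 446.5 and 456 in YC. Its difference was 0.095 in ST against AC (adjusted p = 0.39) and -0.093 in LT against ST (adjusted p = 0.26). Mrpl17 had 871, 887.5 and 923 in LT and 921, 945 and 1011 in ST, against 890, 927, 904, 892 and 897 in AC and 875, 905 and 948 in YC. Its difference was 0.076 in ST against AC (adjusted p = 0.40) and -0.093 in LT against ST (adjusted p = 0.18). The ST median of both genes was above every AC array, and the groups overlapped. Mrps22, a small-subunit protein without a bacterial counterpart, was the sole member without overlap between LT (515, 530.5 and 543) and ST (552, 563.5 and 585), where 1.5% of all probe sets had none. Its difference was -0.093 (adjusted p = 0.24). In ST against AC and in LT against AC no member was without overlap, beside 0.51% and 1.03% of all.

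In LT against AC the smallest p values belonged to Mrps15 of the platform (0.090, adjusted p = 0.29), Mrpl18 (-0.084, adjusted p = 0.31) and Mrpl37 (-0.13, adjusted p = 0.32). Mrpl37 had 422, 451 and 472 in LT, against 523, 462, 438, 461 and 562 in AC, with AC 1 and AC 5 above every LT array and the other 3 within their range. Mrpl47, near the tunnel exit, was at 0.12 in LT against AC (adjusted p = 0.35) and 0.11 in both FKBP1b groups together (adjusted p = 0.40). It had 253, 295 and 304 in LT and 263, 282 and 314 in ST, against 253, 278, 263, 274 and 253 in AC. The groups overlapped. In ST against AC the highest difference was that of Mrps10, a protein of the small-subunit head named after its value was seen, at 0.12 (adjusted p = 0.47).

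For the rest of the mitochondrial translation pathway, calls are given list by list. Of all probe sets tested, 9.75% were called in AC against YC, 8.55% in aged against YC and 4.15% in ST against YC. Of 5 mitoribosomal proteins with other names (medians 0.047 in AC and 0.053 in aged against YC), Chchd1 was higher in aged against YC by 0.10 (SE 0.031, adjusted p = 0.042) and in ST against YC by 0.14 (adjusted p = 0.032), and not in AC against YC (0.11, adjusted p = 0.084). None of 21 probe sets for mitoribosome assembly and rRNA modification was called in AC or aged against YC, where 10 and 12 were positive (medians -0.0060 and 0.014). Of 11 translation factors, Gfm1, the elongation factor that moves the ribosome along the messenger, was higher in AC by 0.12 (SE 0.032, adjusted p = 0.028) and in aged by 0.084 (adjusted p = 0.044). The translation factors had 7 of 11 positive in both comparisons, with medians of 0.047 in AC and 0.024 in aged against YC.

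Of 13 mitochondrial aminoacyl-tRNA synthetases, which load tRNAs with amino acids, Sars2 for serine was lower in AC by -0.17 (SE 0.045, adjusted p = 0.022) and in aged by -0.12 (adjusted p = 0.033). The list had 5 of 13 positive in AC (median -0.0060) and 1 of 13 in aged against YC (median -0.021). Of 10 genes for mitochondrial transcription and DNA maintenance none was called, with 7 positive in AC (median 0.061) and 10 in aged against YC (median 0.040). Of 23 probe sets for protein import and mitochondrial mass (14 genes), 1 of the probe sets of Vdac2, an outer membrane channel, was lower in AC by -0.097 (adjusted p = 0.028), and Hspe1, a co-chaperonin of the matrix, was higher in aged against YC by 0.12 (adjusted p = 0.020) and in ST against YC by 0.14 (adjusted p = 0.037). The list had 5 of 23 positive in both comparisons (medians -0.020 and -0.026). None of 8 nuclear regulators of mitochondrial genes was called in AC or aged against YC (medians 0.026 and 0.013). No gene of these lists was called in ST or LT against AC.

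After group means were removed, the members varied little with each other from array to array. The mean pairwise correlation of 71 probe sets without blank values was 0.039 over 23 arrays, beside 0.0039 over all probe sets tested, 0.15 within the respiratory chain list and 0.29 within the cytosolic list. Between small-subunit and large-subunit probe sets it was 0.037. Each member's correlation with the mean of the others had a median of 0.17, with 3 over 0.5 (Mrpl30 at 0.53, Mrps26 and Mrps25 both at 0.51) and 16 under 0. Arrays share RNA quality and tissue makeup, which can raise such values. The probe sets outside the list that were most like the mean of the members were both probe sets of Npm1 (0.76), Rpl13 of the cytosolic ribosome (0.75), Tmem160 (0.74) and Timm9 of the mitochondrial import system (0.73), over 23 arrays with group means removed. YC 2, the lowest array in the member score (-0.058) and in the cytosolic list (-0.12), was among these arrays. Its part in these correlations was not tested. The probe sets named were the highest of the 13135 tested ones without blank values, after the members were set aside. How high the top values of so many run by chance was not tested.

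Mrpl40, Mrpl41, Mrpl42 and Mrps11 had more than 1 probe set each, which allows a check within a gene. The pairs correlated at 0.86 for Mrpl41, 0.60 for Mrps11, 0.49 for Mrpl42 and 0.22 for Mrpl40 after group means were removed. For Mrps11, a platform protein, the signs differed in AC against YC, at 0.051 for probe set 10708004 and -0.11 for 10770393 (adjusted p = 0.59 and 0.24). With AC 5 left out, probe set 10770393 was lower in AC and passed (-0.17, adjusted p = 0.037). For Mrpl42 the values were -0.098 and -0.010 (adjusted p = 0.42 and 0.92).

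Promoters, taken as 250 bases before to 50 after the start in RefSeq annotation of GRCr8, were on hand for 54 of the 68 genes. The motif AAGATGGCG on either strand, the letters of YY1, a factor known for binding near the start of genes of the mitochondrial and cytosolic ribosome, was present in 9 of 54 (16.7%), beside 3.07% of 10378 tested genes and 1.99% of 27457 genes with a promoter. CCGGAAGT, bound by GABP and other ETS factors, was in 8 (14.8%), beside 6.83% and 4.20%. GCATGCGC, the letters of NRF1, was in 5 (9.26%), beside 4.37% and 2.77%. GGGCGG, bound by Sp1, was in 29 (53.7%), beside 57.6% and 36%, and TATAAA in 8 (14.8%), beside 8.57% and 15.3%. All were searched on both strands, and no 2 different motifs overlapped in these promoters. The median share of G and C was 56% in the members' promoters, 59.7% over tested genes and 51.7% over all. None of the 3 called genes with a promoter in the table held the YY1, GABP or NRF1 letters.

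Stretches of 5 of the 9 promoters with AAGATGGCG are shown as examples. Mrpl46, Mrps10 and Mrpl36, also described above, hold the motif too, in Mrpl36 on the opposite strand. The motif is in capitals with 10 bases on each side, on the strand of the gene.
Mrps18a: gtgtgttcccAAGATGGCGgccctcaggg
Mrps30: gcggaggacaAAGATGGCGgctgccaggt
Mrpl37: tgcccgggcaAAGATGGCGgcgtccaggt
Mrpl42: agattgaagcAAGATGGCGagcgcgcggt
Mrpl50: gagcttgtcgAAGATGGCGgcgctgtgtg
They lie at chr9:22367362-22367390 (Mrps18a), chr2:52195868-52195896 (Mrps30), chr5:127074943-127074971 (Mrpl37), chr7:32028485-32028513 (Mrpl42) and chr5:68668043-68668071 (Mrpl50), all on the minus strand. The motif began at base 1 of the transcript in Mrps18a, 19 in Mrps30, 7 in Mrpl37, 20 in Mrpl42 and 27 in Mrpl50. Its letters include ATG, and whether this is where the protein begins was not examined.

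Some members start close to a neighboring gene that runs in the opposite direction, counted here within 1000 bases. Of the 54 genes, 18 (33.3%) had such a neighbor, beside 14.4% of the tested genes and 11.4% of all genes with a promoter. Mrpl46 and Mrps11, of the large and the small subunit, are 234 bases apart on chromosome 1, Mrpl47 and the respiratory chain gene Ndufb5 244 bases apart on chromosome 2, and Mrpl49 and Fau, which encodes a cytosolic ribosomal protein, 186 bases apart on chromosome 1. In AC against YC, Mrpl46 was at -0.13 and the 2 probe sets of Mrps11 at 0.051 and -0.11, none of them called.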

How the data were processed

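RNA from the dorsal hippocampus of 23 rats was read on the Rat Gene ST chip of Affymetrix, 1 per animal. The deposited values are probe set intensities, called signals here, that the authors made with the Robust Multiarray Average algorithm (Partek and RMA are named in the submitters' processing notes, with versions not given in the sources used here). They are unlogged and rounded, hold 758 blank values, and were used as deposited after a log2 transform. The annotation gives 1 gene symbol to 15307 probe sets, several to 323 and none to 13581. Those with 1 symbol that reached a signal of 40 on 4 or more arrays (13339) were fitted with limma 3.58.1 in R 4.3.3, with 1 mean for each of the 4 groups and Benjamini-Hochberg adjustment at 0.05. The blank value among the members (Mrpl14 on LT 6) stayed missing. Groups came from the sample titles. The scripts were tested on simulated data. The number of arrays limits the precision.

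Members named are those called, the 3 with the smallest p in each comparison, the 3 with the highest and lowest signal and with the largest spread, some chosen for their role, and genes with more than 1 probe set. Mrpl4, Mrpl46, Mrps34 and Mrps10 lie outside this rule and were named after their values were seen. The members and lists were chosen with earlier results of these data known. Promoter sequences came from a RefSeq table of GRCr8. Alternatives covered the filter, scaling, variance model, values over 2 SD, the methods' one-way analysis of variance, array weights, RNA integrity number, replicate block, and left-out arrays.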

Additional observations from a re-analysis of the deposited data

Results flagged for a closer look

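In each group of 5 or 6 arrays, 120 in all over the members named and their scores, the lowest and highest array were compared with the nearest other array. Chance alone marks about 1 in 20 such groups, and 4 stood apart. Mrpl10 had a signal of 414 on YC 4, the highest in YC, with the next at 385. Without YC 4 the AC against YC difference of Mrpl10 was 0.12 (adjusted p = 0.021), against 0.097 (adjusted p = 0.047) with it. Mrpl42 (probe set 10901999) had a signal of 1489 on ST 1, with the next ST array at 1411. Mrpl3 had a signal of 369 on LT 4, the lowest in LT, with the next at 381. The mean score of the members was -0.058 on YC 2, with the next YC array at -0.0061.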

How the results depend on the processing

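The count of members called was recomputed in up to 14 alternative fits and 23 fits without 1 array. It was the same to within 1.5 times except as follows. With array medians made equal it was 8 in ST against YC, 0 in LT against YC and 5 in the F test. With array weights it was 8 in ST against YC and 3 in LT against YC. With the RNA integrity number as a covariate it was 0 in LT against YC. With the groups compared alone it was 5 in ST against YC and 3 in LT against YC. With AC 3, AC 4, LT 2 and LT 5 left out it was 1 in AC against YC (Mrpl38), 0 in LT against YC and 0 in the F test. Without 1 array it ranged from 2 to 4 in AC against YC, 3 to 4 in aged against YC, 0 to 1 in ST against AC and in ST and LT against AC (Mrpl23, without AC 1), 0 to 0 in LT against AC and in LT against ST, 1 to 3 in ST against YC, 0 to 2 in LT against YC and 2 to 6 in the F test. It was 1 in ST against YC without YC 3, ST 3 or ST 4, 0 in LT against YC without YC 1, YC 3, LT 2 or LT 5 and 2 without AC 5, and 6 in the F test without AC 5. Over all probe sets, calls without AC 5 were 378 in LT against YC and 1214 in the F test, against 138 and 728 with it. Without AC 1 they were 65 in ST against AC and 120 in ST and LT against AC, against 0 and 4. They were 298 to 368 in the 3 ST against YC fits named, and 48 to 68 in the LT against YC fits with 0 members. Whether signal over background limits the dimmer members was not tested, and 65 of the 72 had a mean signal over 200. No called difference turned its direction. The AC against YC call of Mrpl10 was kept in 5 of 14 alternative fits, those of Mrpl38 in 14 and of Mrpl23 in 13.

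Over all probe sets, calls in AC against YC numbered 1300 as reported, 2355 with all probe sets, 385 with the groups compared alone and 398 with the same 4 arrays left out. In aged against YC they were 1140, against 2397 with array weights, 1803 with all probe sets and 725 with the same 4 arrays left out. In ST against YC they were 553, against 1996 with array weights, 1236 with array medians made equal, 1174 with all probe sets and 1157 with the groups compared alone. In LT against YC they were 138, against 41 to 420, and in the F test 728, against 339 to 1473. In LT against AC they were 10, against 3 to 118 in the alternative fits. In the same fits they were 0 to 7 in ST and LT against AC, against 4, and 1 to 113 in LT against ST, against 1.

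Arrays of different groups share replicate numbers in the labels, with nothing that says what a number marks. Over 33 pairs of arrays with the same number the correlation of deviations averaged 0.021 (-0.14 to 0.15), and 3 of 23 arrays were most like one with their own number, so the numbers were not taken as pairs. With a replicate block the members called were 2 in AC against YC, 3 in aged against YC, 3 in ST against YC, 1 in LT against YC and 2 in the F test, and 0 in the others.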
